A study of Mus musculus with 10 samples.

Results

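The transcriptome of mouse embryonic stem cells (ESCs) was compared with that of mouse embryonic fibroblasts (MEFs), which the series uses as its pluripotent and its fibroblast reference in a study of reprogramming. The 4 libraries were chosen by their sample names, 2 of ESCs and 2 of MEFs, out of 10 libraries in the series. The 6 libraries of induced cells entered the filter of genes, the scaling of the libraries and the shared estimate of the spread between replicates. Apart from that, their day 9 levels are named at some genes. Those day 9 levels come from cells of another sex pattern than the MEFs: Xist was at 1075 CPM and Ddx3y at 0.0987 CPM on day 9, against 0.739 and 0.793 CPM and 90.6 and 86.4 CPM in the MEF libraries. Day 3 and day 6 cells had the day 9 pattern. Whether these MEFs come from the embryos used for induction is not given in the sources used here. The MEFs carried the genotype OKSM Col1a1/M2rtTA ROSA26, that is, a doxycycline-inducible cassette of Pou5f1, Klf4, Sox2 and Myc in the Col1a1 locus and the transactivator M2rtTA in the Rosa26 locus. They were kept in MEF medium without doxycycline. The ESCs were the line V6.5, grown with serum and LIF on irradiated feeder cells. The growth protocol names 2 kinase inhibitors for other assays of the study and not for these libraries. Both groups have the strain label C57BL/6 x 129, both were left unsorted, and the batch label is the same in each of the 4. V6.5 is a single line, so its libraries do not sample different ESC lines, and the cassette is present in the MEFs alone. Age of the embryos and passage number are not given in the sources used here.

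ESCs are derived from the inner cell mass of the blastocyst and can form every tissue of the embryo. Their identity rests on a network of transcription factors around Pou5f1 (Oct4), Sox2 and Nanog, and LIF in the medium holds mouse ESCs in the naive state through the kinase Jak and the factor Stat3. Fibroblasts are mesenchymal cells that secrete and remodel extracellular matrix, pull on it through actin stress fibres and keep a memory of their body position in their Hox genes. Feeder cells are growth-arrested fibroblasts on which ESCs are plated. They are harvested with the ESCs unless they are removed, so RNA of fibroblasts can be part of an unsorted ESC library.

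Each library held 31221957 to 38275024 estimated reads. The ESC libraries had at least 10 reads in 18378 and 18522 genes and the MEF libraries in 16137 and 16680. A larger share of MEF reads fell on few genes: the 50 most abundant held 18.4% and 18.3% in MEFs and 12.9% in each ESC library. Mitochondrially encoded genes held 2.02% and 2.06% of reads in MEFs and 2.88% and 2.83% in ESCs. Levels below are read counts scaled to library size (CPM) after TMM scaling, a scaling that assumes that most genes do not differ, and they are relative to the RNA of a library, not per cell. In whole cultures, fewer cells of a type and less RNA per cell cannot be told apart. A gene was called higher or lower in ESCs when the quasi-likelihood test of edgeR gave an adjusted p-value under 0.05 and the log2 fold change was at least 1 in size. The p-values measure the spread between these samples, which the series describes as biological replicates without naming separate cultures or embryos. With 2 libraries against 2, a two-sided exact permutation test of a single value cannot give a p-value under 0.333, so none was run.

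Of 20165 genes tested, 5142 were called higher in ESCs (25.5%) and 4148 lower (20.6%). Together the 9290 called genes made up 46.1% of the genes tested. The groups did not overlap in 9274 of them and in 17558 of all genes tested (87.1%), so separation of the groups alone says little about a gene. Scaling by library size alone, in place of TMM, called 6553 genes higher and 3152 lower, so that the share of higher genes among those called went from 55.3% to 67.5%. That scaling moved the median over all genes from 0.1 to 0.44 on the log2 scale, and each difference below is relative to the TMM scale. Protein-coding genes were called higher in 25.7% and lower in 22.8% of cases. The remaining genes, mostly non-coding RNAs and pseudogenes, were called higher in 24.6% and lower in 12.1%. There were 354 protein-coding genes under 0.5 CPM in both MEF libraries and at 5 CPM or more in both ESC libraries, and 47 with the opposite pattern.

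**Figure D1:**
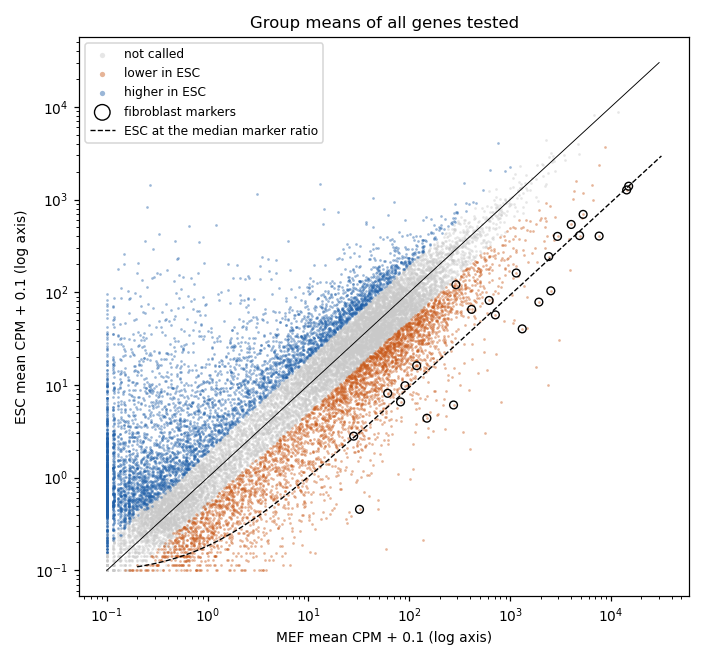
Mean CPM + 0.1 of the 2 ESC libraries (vertical, log axis) against that of the 2 MEF libraries (horizontal, log axis) for the 20165 genes tested, in blue if called higher, orange if called lower and grey if not called; the thin line marks equal levels, circles mark the fibroblast markers and the dashed line marks an ESC level at 9.33% of MEF, the median over those markers. Most circles lie near the dashed line, and few orange points lie far under it.

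The most abundant genes among those called are given here as a description, since they were chosen for differing. On the scale of TPM, the usual per-length unit, which allows for gene length, the highest called genes in ESCs were Hsp90aa1, a protein-folding chaperone (3998 TPM against 700.5 in MEFs), Dppa5a, an RNA-binding protein of pluripotent cells (1856 against 0.208), Ptma, a nuclear acidic protein (1446 against 610.5), Senp3, a nucleolar SUMO protease (1388 against 322.3), and Npm1, a nucleolar chaperone (1355 against 604.6). Among genes called lower the highest in MEFs were products of the cytoskeleton and the matrix. They were the intermediate filament Vim (3346 TPM against 800.4 in ESCs), the collagens Col1a1 (3281 against 320.4) and Col3a1 (2490 against 134.4), the actin Actg1 (3132 against 1194) and the proteoglycan Bgn (2827 against 446.1).

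Fibroblast markers were called lower in ESCs in 25 of 25 cases (24 under library-size scaling, where Mmp2 was at -0.92), but they were not absent. Their summed level was 67170 and 65370 CPM in the MEF libraries and 6003 and 6215 CPM in the ESC libraries. For the 24 markers with at least 20 CPM in MEFs, the ESC level was a median 9.33% of the MEF level, with 9.04% in one ESC library and 9.63% in the other (SD 0.42 percentage points, n = 2). The quartiles over markers were 5.0% and 13.2%. The ratios of single markers ran from 1.11% for Lum to 41.6% for Mmp2. Collagens of the fibril stood at 5.29% (Col3a1), 9.3% (Col1a1) and 13.1% (Col5a1), receptors at 2.18% (Pdgfra), 13.2% (Pdgfrb) and 15.8% (Ddr2), the surface glycoprotein Thy1 at 14.0%, and transcription factors at 7.9% (Twist1) to 13.6% (Prrx2). In 13 markers the ratio was under 10% and in 10 it lay between 10% and 20%. The day 9 cells of the series, which had been sorted for the surface epitope SSEA1, were far lower in most of the same genes, at 0.0379% of MEF for Col1a1, 0.0305% for Col3a1 and 0.832% for Thy1. Exceptions were Dcn, at 2.5% on day 9 and 2.87% in ESCs, Col6a2, at 3.57% and 3.05%, and the collagen receptor Ddr2, at 10.6% and 15.8%. The labels do not say which fibroblasts served as feeders, so the profile of the feeders themselves was not measured.

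**Figure D2:**
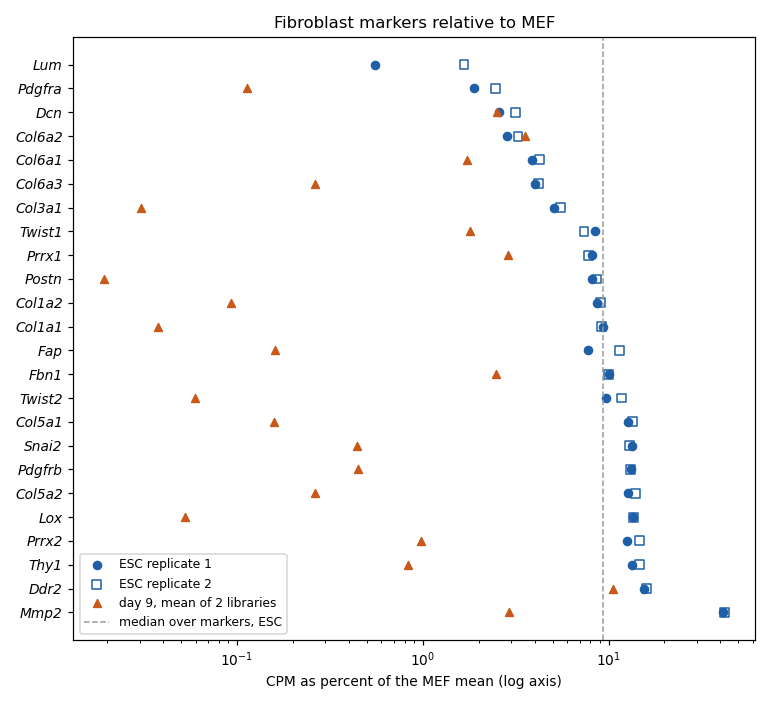
Level of 24 fibroblast markers as a percent of the MEF mean (log axis) in each ESC library (blue circle and open square) and in the mean of the 2 day 9 libraries (orange triangle; Lum was at 0 on day 9 and is not drawn there); the dashed line is the median over markers in ESCs, 9.33%. The 2 ESC libraries lie close together in most markers, from 1.11% for Lum to 41.6% for Mmp2, and day 9 cells lie to the left in most.

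Because of these levels, the comparison was repeated after a share of the MEF profile had been taken off each ESC library. The share was the library's median marker ratio or, as a higher setting, the upper quartile. It was larger than the whole ESC level of some genes, and Col3a1, Col6a1 and Igf2 were left at 0 CPM with either setting. Lower calls added by the step, here and below, rest on a share that is too large for such genes. Calls of higher genes hardly moved: 5136 of the 5142 stayed with the lower share and 5133 with the higher one. This outcome was largely fixed in advance, since the step takes little off a gene that is past the fold minimum in ESCs. It is no evidence on feeder RNA. The step can only push genes that are higher in MEFs further down in ESCs, and 695 or 1033 further genes were called lower. Lower calls then came to 24.0% or 25.7% of the genes tested. Before any subtraction, the ESC level was at or under 9.33% of MEF in 548 of the lower genes and above 13.2% in 3292. How much of the latter is RNA of ESCs and how much is RNA of feeders was not tested.

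Of 7643 protein-coding genes at 20 CPM or more in MEFs, 15 stood in ESCs below the lowest marker ratio. They were Igf2, Igfbp5, Fbn2, Eln, Lrrc17, Nov, Lgr5, Ptx3, Tnmd, Ifi202b, Zcchc5, Serpina3n, Heph, Adh1 and Ptgfr, named after their values were seen. Lgr5, a receptor for R-spondins, was at 134.1 and 136.3 CPM in MEFs and at 0.0884 and 0.134 CPM in ESCs (log2 fold change -10.19, SE 0.12, edgeR adjusted p 6.57e-17). Igf2, a growth factor of the embryo, was at 2386 and 2381 CPM in MEFs and at 8.49 and 11.3 CPM in ESCs (log2 fold change -7.9, SE 0.07, edgeR adjusted p 4.84e-18). Elastin (Eln) went from 558.9 and 568.9 CPM in MEFs to 2.86 and 3.07 CPM in ESCs, and the microfibril protein Fbn2 from 839.7 and 792.8 to 6.86 and 5.96. The 10 largest falls also included Ifi202b (log2 fold change -9.65), Lrrc17 (-7.7), Serpina3n (-7.06), Igfbp5 (-6.87), Tnmd (-6.83) and Nov (-6.81). Ifi202b belongs to a family of near-identical copies, and its value is uncertain.

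Pluripotency genes were far higher in ESCs. All 12 markers of pluripotent cells were called higher in ESCs, with a summed level of 8.72 and 8.54 CPM in the MEF libraries and 5571 and 5709 CPM in the ESC libraries. Of the 30 genes of naive and core pluripotency, 28 were called higher and 0 lower, with a median log2 fold change of 9.54 against 0.1 for all genes. With the 3 genes that had no read in MEFs set to their lower bound, the median was 9.15. These lists were chosen to mark ESCs, so their direction is a check of the labels and no independent evidence.

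Pou5f1 (ENSMUSG00000024406.14, chromosome 17, 35506018 to 35510772, GRCm38), the POU factor at the centre of the network, was at 3.36 and 2.59 CPM in MEFs and at 1124 and 1182 CPM in ESCs. Both ESC libraries stood far above both MEF libraries, and the log2 fold change was 8.61 (SE 0.09, edgeR adjusted p 1.12e-17). Its partner Sox2 was at 3.25 and 3.48 CPM in MEFs and 242.2 and 240.5 CPM in ESCs, and the homeobox factor Nanog at 0.85 and 1.37 against 522.1 and 527.9. Gene totals combine cassette and endogenous transcripts, and the Pou5f1, Sox2, Klf4 and Myc levels in MEFs are not assigned to either. The orphan receptor Esrrb went from 0.148 and 0.305 CPM to 419.3 and 421.7 CPM (log2 fold change 10.79, SE 0.09, edgeR adjusted p 2.95e-18). Tdgf1, a coreceptor of Nodal, was at 0.148 and 0.152 CPM in MEFs and at 827.1 and 847.3 CPM in ESCs. Within this group, Dppa5a had the highest ESC level, 1398 and 1441 CPM, with 0.333 CPM in one MEF library and 0 in the other.

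Several members had no read in either MEF library. Gdf3, a ligand of the TGF-beta family, stood at 95.1 and 96.3 CPM in ESCs, at least 946-fold higher when the MEF libraries are set to a floor of 3 reads each. On the same scale Tcl1, a coactivator of Akt, was at least 572-fold higher, with 58.0 and 57.6 CPM in ESCs. Prdm14, a regulator of naive pluripotency and germ cells, was at least 282-fold higher. At the other end, the corepressor Trim28 was abundant in both cell types, with 348.4 and 345.3 CPM in MEFs and 1491 and 1492 CPM in ESCs. The 2 members not called were both Krüppel-like factors. Here and below, members named as not called were mostly chosen after their values were seen. Klf2 was at 170.3 and 165.9 CPM in MEFs and 120.5 and 123.3 CPM in ESCs. Klf4 was at 329.9 and 320.3 CPM in MEFs and 178.8 and 185.5 CPM in ESCs (log2 fold change -0.84, edgeR adjusted p 1.68e-11), and it was called lower, at -1.02, once the fibroblast share was taken off. These factors thus had more reads in fibroblasts than in ESCs.

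**Figure D3:**
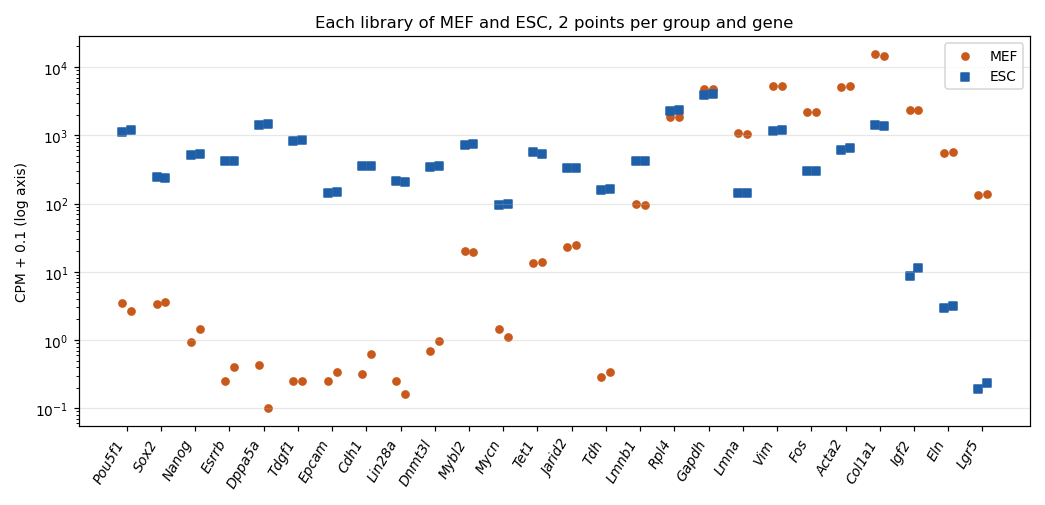
CPM + 0.1 (log axis) of 26 genes in each MEF library (orange circles) and each ESC library (blue squares), ordered from genes of pluripotency to genes of fibroblasts. The 2 libraries of a group lie close together, Pou5f1 separates at 3.36 and 2.59 against 1124 and 1182 CPM, and Rpl4 and Gapdh lie near each other in both groups.

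Genes of the formative and primed epiblast, the stages after the naive state, were called higher in 12 of 16 cases and lower in 3. These shares were 75.0% and 18.8%, the latter near the 20.6% of all genes, of which 25.5% were higher. Nodal, the ligand that patterns the early embryo, had no read in MEFs and 51.0 and 54.3 CPM in ESCs, at least 521-fold higher. The homeobox factor Otx2 was at 0 CPM in both MEF libraries and at 11.9 and 13.0 CPM in ESCs, at least 123-fold higher, and the Nodal antagonist Lefty2 was at 46.1 and 47.0 CPM in ESCs with a total of 3 reads in MEFs. Fgf5, the classical mark of the primed epiblast, was under 1 CPM in each of the 4 libraries. The members called lower were transcription factors that are also expressed outside the epiblast. Sox4 was at 265.6 and 253.9 CPM in MEFs and 54.0 and 49.8 in ESCs, Sox11 at 34.4 and 37.4 against 16.5 and 15.4, and Sall2 at 27.4 and 27.5 against 12.3 and 12.5. Sox11 and Sall2 were not past the fold minimum under library-size scaling.

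Genes of the 2-cell embryo, which a small fraction of cultured ESCs is known to express, were called higher in 13 of 14 cases. The median log2 fold change was 8.86, or 4.83 when the 8 members without a read in MEFs were set to their bound. Zscan4f led this group at 74.0 and 64.4 CPM in ESCs and a single read in MEFs. Zscan4c was at 22.5 and 27.2 CPM in ESCs and Zscan4b at 10.2 and 9.05, both without a read in MEFs. Zscan4 genes are a family of near-identical copies among which reads can be divided, so these single values are uncertain. Eif1a, the member not called, was at 174.4 and 182.9 CPM in MEFs and 177.0 and 171.0 CPM in ESCs. The stricter low-count filter, 10 CPM in 2 libraries, made 4 higher calls, and limma on log2(TPM + 1) made 8.

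Genes of the germ line and of meiosis were called higher in 40 of 43 cases and lower in none, with a median log2 fold change of 6.13, or 5.33 with 6 genes at their bound. Their summed level was 47.9 and 47.2 CPM in MEFs and 998.6 and 970.1 CPM in ESCs. Without a fold minimum, 1 member was called lower. Tex19.1, a factor that restrains transposons, had no read in MEFs and 72.6 and 70.3 CPM in ESCs, at least 706-fold higher. Stra8, the gatekeeper of meiotic entry, had none in MEFs and 33.2 and 37.4 CPM in ESCs, at least 349-fold higher. Hormad1, a protein of the meiotic chromosome axis, was at 43.4 and 41.3 CPM in ESCs with 1 read in MEFs. The meiotic cohesin Stag3 was at 2.18 and 1.95 CPM in MEFs and 86.3 and 79.8 CPM in ESCs (log2 fold change 5.33, SE 0.09, edgeR adjusted p 1.45e-15). On day 9 the levels were 0.0608 CPM for Stra8, 0.133 for Hormad1 and 13.3 for Stag3. Rpl10l, a retrocopy of a ribosomal protein gene that serves in the testis, was at 0 in MEFs and at 19.8 and 20.9 CPM in ESCs. The members not called were Prdm9, Brdt and Sycp2, each under 3 CPM in every library.

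The promoters of germ line genes were searched because these genes were high together in ESCs. The letters sought were the E-box, CACGTG, a palindrome read the same on both strands and bound by factors of the Myc and Max network. In the RefSeq promoter table (GRCm38.p6; 250 bases before to 50 after the start) 36 members were found, and 12 of them (33.3%) held CACGTG, against 8.09% of the 27025 genes in the table. Among tested genes with a promoter the share was 11%, with 10.3% of those called higher, 9.56% of those called lower and 11.9% of those not called. Calls in either direction thus held the letters no more often than genes not called. The letters follow for 11 of the 12 genes with 7 bases on either side, written 5′ to 3′ on the strand of the gene, with the E-box in capitals. In Mov10l1 the match lay too near the edge of the window to be shown this way.
Ddx4 (chr13:112652327-112652346, 29 bases before the start): ccgcccgCACGTGcagccgt
Mael (chr1:166238955-166238974, 223 bases before): ggcctacCACGTGacaatcc
Taf7l (chrX:134476527-134476546, 49 bases before): cttatacCACGTGacagaac
Slc25a31 (chr3:40708771-40708790, 93 bases before): ctggaaaCACGTGttatggt
Sycp1 (chr3:102936182-102936201, 94 bases before): aacccggCACGTGggaaggg
Sycp3 (chr10:88459516-88459535, 64 bases before): tggctccCACGTGagaacgg
Sycp3 (chr10:88459537-88459556, 43 bases before): catggagCACGTGctaggag
Stag3 (chr5:138280332-138280351, 170 bases before): tggagccCACGTGacaggac
Hormad1 (chr3:95559613-95559632, 57 bases before): ggtgcgcCACGTGccagtga
Hormad1 (chr3:95559650-95559669, 20 bases before): cactgcgCACGTGctgaccg
Tdrd1 (chr19:56826191-56826210, 11 bases before): ctgcgcgCACGTGggagtaa
Stk31 (chr6:49395477-49395496, 55 bases before): ggccaccCACGTGaccaggg
Brdt (chr5:107331109-107331128, 78 bases before): gcacagtCACGTGgcagacc

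Among these 11 genes, 10 were called higher, and in the whole germ line list 40 of 43 were (93.0%). The genes with the letters were thus not called higher more often than their list. Brdt was not called, at 2.7 and 2.68 CPM in MEFs and 1.8 and 2.24 CPM in ESCs. Ddx4, an RNA helicase of germ cells, was at 2.0 and 1.74 CPM in MEFs and 31.6 and 32.5 CPM in ESCs. Mael, a piRNA factor, went from 0.148 and 0.0305 CPM to 16.9 and 14.7 CPM, and the synaptonemal complex protein Sycp3 from 0.222 and 0.579 to 10.3 and 9.0. The windows of Tex19.1, Stra8 and Rpl10l held no CACGTG, so not every germ line gene high in ESCs held the letters. Hormad1 held a pair of them in the 250 bases before its start (GRCm38.p6, forward strand). This stretch is shown whole because Hormad1 had the largest log2 fold change among the germ line genes chosen by rule that held the letters.
Hormad1 (chr3:95559427-95559676): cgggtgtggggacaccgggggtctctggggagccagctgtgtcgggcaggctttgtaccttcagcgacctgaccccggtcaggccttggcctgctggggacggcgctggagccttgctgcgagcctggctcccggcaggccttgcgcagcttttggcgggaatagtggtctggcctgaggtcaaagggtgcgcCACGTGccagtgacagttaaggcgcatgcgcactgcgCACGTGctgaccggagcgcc

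Further motifs were counted in the same way. The octamer ATGCAAAT, the binding letters of Pou5f1, was found in 1 of 19 pluripotency genes with a promoter (5.26%) against 1.97% of all genes. The Krüppel letters CACCC were in 13 of 19 (68.4%) against 59.8%. The AP-1 letters TGANTCA were in 6.67% of collagen genes, 18.2% of matrix glycoprotein genes, 21.1% of protease genes and 12.5% of contractile genes, against 8.97% of all genes. Each was searched on both strands, these shares rest on 15 to 32 genes a list, and a match is a stretch of letters, not a bound site.

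Among protein-coding genes at 20 CPM or more, the 10 with the largest fitted log2 fold change were all without a read in MEFs. That order depends on how the fit treats 0 reads, and their bounds lie below the measured ratios of genes with some MEF reads such as Tdgf1 and Esrrb. Besides Gdf3, Tex19.1, Tcl1, Nodal and Stra8 they were Tuba3a, a testis-type tubulin (at least 731-fold higher), Gm13145 (at least 636-fold), Mageb16, a cancer-testis antigen (at least 413-fold), Slc28a1, a nucleoside transporter (at least 367-fold), and Nefh, a neurofilament protein (at least 351-fold). Tuba3a and Gm13145 have close relatives among which reads could be divided. In all, 721 tested genes had no read in either MEF library and 112 had none in either ESC library.

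The matrix programme of the fibroblast was lower in ESCs as a whole. Of 19 fibrillar and network collagens, 18 were called lower (median log2 fold change -3.36), and so were 26 of 32 matrix glycoproteins (-2.02), 10 of 10 small leucine-rich proteoglycans (-4.98), 24 of 25 genes of collagen folding and crosslinking (-2.05) and 20 of 25 matrix proteases and inhibitors (-1.87). For all genes the share called lower was 20.6%. These lists overlap the fibroblast markers, and their ESC levels move with those markers, so the part of feeder RNA in them was not tested.

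Col1a1, the main fibril collagen of connective tissue, was at 15560 and 14390 CPM in MEFs and 1406 and 1380 CPM in ESCs (log2 fold change -3.43, SE 0.04, edgeR adjusted p 8.72e-17). The chains of collagen VI, which forms beaded filaments around cells, were lower still: Col6a1 was at 1930 and 1924 CPM in MEFs and 75.0 and 81.4 in ESCs, Col6a2 at 1318 and 1317 against 37.4 and 43.0, and Col6a3 at 2530 and 2532 against 101.5 and 105.7. Col15a1, of basement membrane zones, had the largest difference, from 156.5 and 147.6 to 3.21 and 3.39 CPM. The groups were apart in each of these genes, and replicates differed by far less than the groups. Col18a1, the member not called, was at 188.4 and 184.6 CPM in MEFs and 305.9 and 320.4 in ESCs.

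Elastic fibre genes were among the glycoproteins that differed most. Beside Eln and Fbn2, Mfap4 was at 218.6 and 229.4 CPM in MEFs and 3.54 and 2.96 in ESCs. Nov, a matricellular protein of the CCN family, was at 341.7 and 344.4 against 2.83 and 3.26. Fibronectin (Fn1), by contrast, remained at 3721 and 3704 CPM in ESCs against 9122 and 8201 in MEFs, a log2 fold change of -1.22 that fell short of the minimum under library-size scaling (-0.88). Among the proteoglycans, which bind collagen fibrils and growth factors, Fmod was at 167.6 and 173.4 CPM in MEFs and 2.74 and 3.39 in ESCs and Dcn at 144.9 and 153.8 against 3.86 and 4.7. Bgn was the most abundant, at 6702 and 6698 CPM in MEFs and 978.3 and 1007 in ESCs.

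The enzymes that build and cut this matrix showed the same direction. Serpinh1, the collagen chaperone of the endoplasmic reticulum, was at 3776 and 3825 CPM in MEFs and 359.7 and 391.0 CPM in ESCs. The prolyl hydroxylase subunits P4ha2 and P4ha3 were at 431.4 and 443.0 against 45.3 and 45.9, and at 205.1 and 198.7 against 21.5 and 21.8. Creb3l1, a transcription factor of secretory load, had a log2 fold change of -2.92. Of the aggrecanases, Adamts1 was at 479.3 and 474.6 CPM in MEFs and 14.1 and 12.9 in ESCs, and Adamts5 at 229.3 and 232.3 against 8.87 and 7.96. The only protease called higher, Mmp10, stayed under 1 CPM, and its call was lost without MEF replicate 2 or without ESC replicate 1.

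**Figure D4:**
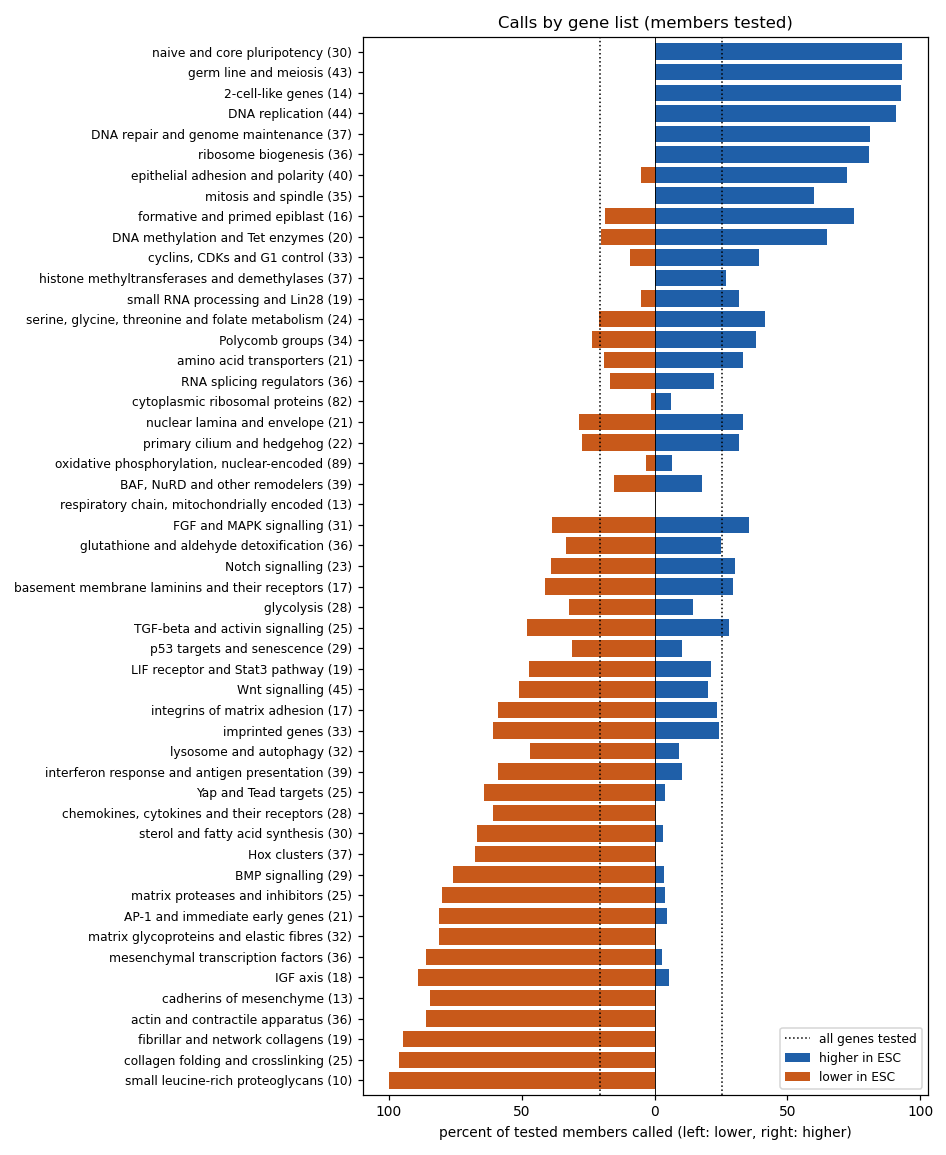
Percent of the tested members of 51 gene lists called lower (orange, to the left) and higher (blue, to the right) in ESCs, ordered by the difference, with the number of tested members in brackets; dotted lines mark all genes tested, 25.5% higher and 20.6% lower. Pluripotency, germ line and replication lists stand at the top with over 90% of members higher, and proteoglycans, collagen folding and collagens at the bottom with over 90% lower.

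Laminins and integrins had members on either side. Of 17 basement membrane genes and receptors, 5 were called higher (29.4%, near the 25.5% of all genes) and 7 lower (41.2%). Mesenchymal laminin chains were lower in ESCs, Lama4 at 386.1 and 400.4 CPM in MEFs and 9.02 and 8.33 in ESCs and Lama2 at 77.3 and 77.8 against 11.1 and 12.6. The chains of epithelial and embryonic basement membranes were higher, Lama1 at 8.5 and 9.91 against 79.5 and 79.6 CPM and Lama5 at 63.3 and 56.2 against 178.7 and 168.5. The laminin receptor subunits Itga3, Itga6 and Itgb4 were also higher, with log2 fold changes of 1.76, 1.4 and 2.27, while Itga6 was not called by limma on log2(TPM + 1) (0.57). Under library-size scaling, 4 of the 7 lower calls were made. Of 17 integrin genes, 10 were lower (58.8%, against 20.6% of all genes) and 4 higher (23.5%, near the 25.5% of all genes). The collagen and fibronectin receptors Itga1, Itga8 and Itga4 had log2 fold changes of -3.05, -3.03 and -2.8, and Itgb1, the subunit most of them share, was at 1933 and 1936 CPM in MEFs and 772.8 and 774.3 CPM in ESCs. Itgb7, a partner subunit of leukocyte integrins, was higher, at 0.813 and 0.762 against 16.1 and 14.8 CPM.

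Epithelial genes were high in ESCs, which grow as compact colonies joined by E-cadherin. Of 40 genes of epithelial adhesion and polarity, 29 were called higher and 2 lower (median log2 fold change 3.95). Cdh1, E-cadherin, was at 0.222 and 0.518 CPM in MEFs and 356.8 and 355.4 CPM in ESCs (log2 fold change 9.84, SE 0.11, edgeR adjusted p 2.22e-17). The adhesion molecule Epcam was at 0.148 and 0.244 against 143.2 and 145.4 CPM. Crb3, of the apical polarity complex, had no read in MEFs and 6.92 and 6.68 CPM in ESCs, and the epithelial regulator Grhl2 had 1 read in MEFs and 13.6 and 13.1 CPM in ESCs. P-cadherin (Cdh3) went the other way, from 221.4 and 216.9 CPM in MEFs to 30.6 and 33.3 in ESCs, as did keratin 19 (Krt19), from 27.4 and 28 to 3.98 and 4.51. Cadherins of mesenchyme were called lower in 11 of 13 cases. Cdh11 was at 1478 and 1487 CPM in MEFs and 84.6 and 91.7 in ESCs, and the giant planar-polarity cadherins Fat4 and Dchs1 had log2 fold changes of -4.99 and -4.46.

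Genes of the actin cytoskeleton were called lower in 31 of 36 cases and higher in none, with log2 fold changes of -3.2 to -0.42. Acta2, smooth muscle actin and a mark of contractile fibroblasts, was at 5138 and 5251 CPM in MEFs and 602.2 and 647.0 CPM in ESCs (log2 fold change -3.06, SE 0.05, edgeR adjusted p 3.95e-16). Mylk, the kinase of myosin light chain, was at 115.7 and 111.1 against 11.3 and 13.4, and the light chain Myl9 at 709.1 and 708.3 against 100.1 and 107.9. Vim was at 5220 and 5262 CPM in MEFs and 1141 and 1204 in ESCs.

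Transcription factors of mesenchyme were called lower in 31 of 36 cases (median log2 fold change -3.05). Prrx1, of limb and skeletal mesenchyme, was at 714.6 and 712.2 CPM in MEFs and 58.1 and 55.7 in ESCs. Tbx15 was at 150.0 and 147.9 against 6.42 and 8.52, Osr1 at 44.4 and 42.5 against 1.24 and 1.31, and Pitx1, a hindlimb factor, at 17.8 and 16.5 against 0.383 and 0.32. The 1 member called higher, Barx1, stayed under 1 CPM and lost its call without any one of the 4 libraries.

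Hox genes, which record position along the body axis, were called lower in 25 of 37 cases and higher in none (median log2 fold change -1.9). Levels in MEFs were moderate, with Hoxb9 the highest at 63.6 and 61.2 CPM against 13.2 and 11.9 in ESCs. Among members at 5 CPM or more in MEFs, the largest differences were those of Hoxa10 at 29.7 and 31.8 CPM in MEFs and 1.71 and 1.98 in ESCs, Hoxa11 at 12.5 and 13.3 against 0.795 and 0.961, Hoxa9 at 16.0 and 15.6 against 1.15 and 1.47, and Hoxd8 at 19 and 17.4 against 1.15 and 1.33. Members called lower lay in each of the HoxA, HoxB, HoxC and HoxD clusters. After subtraction of the fibroblast share 29 or 31 members were called lower. The stricter low-count filter made 15 lower calls and limma on log2(TPM + 1) made 14, and library-size scaling called 1 member higher.

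Immediate early genes, whose products form the AP-1 factor, were called lower in 17 of 21 cases (median log2 fold change -2.74). Fos was at 2214 and 2201 CPM in MEFs and 302.5 and 298.4 CPM in ESCs (log2 fold change -2.88, SE 0.04, edgeR adjusted p 4.68e-16), Fosb at 1376 and 1342 against 123.1 and 108.3, and Jun at 1060 and 1037 against 88.8 and 99.8. Atf3 and Egr2 had log2 fold changes of -3.4 and -3.36. Klf10 was the exception, at 30.2 and 28.2 CPM in MEFs and 66.8 and 65.7 in ESCs. Targets and partners of Yap, the coactivator that responds to cell spreading, were lower in 16 of 25 cases. Cyr61, a matricellular protein, was at 1492 and 1490 CPM in MEFs and 208.3 and 211.3 in ESCs, and the cofactor Vgll3 at 106.1 and 105.5 against 14.1 and 15.2. Tead4, a DNA-binding partner of Yap, was higher, from 5.5 and 5.21 to 19.7 and 21.3 CPM.

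In the TGF-beta and activin list 7 of 25 members were higher and 12 lower. The higher genes were the Nodal branch: the ligands Nodal and Gdf3, the coreceptor Tdgf1, the antagonists Lefty1 (4.1 and 4.39 CPM in MEFs, 94.2 and 98.7 in ESCs) and Lefty2, and the receptors Acvr1b and Acvr2b, with log2 fold changes of 1.1 and 2.89. The lower genes included the TGF-beta branch, with the receptor Tgfbr2 at 210.8 and 215.0 CPM in MEFs and 21.2 and 20 in ESCs, the ligand Tgfb3 at 358.8 and 358.9 against 44.1 and 44.8, and the target Tgfbi at 346.0 and 356.1 against 16.1 and 18.6. BMP signalling was lower in 22 of 29 cases. Its target genes Id1, Id2 and Id4 had log2 fold changes of -2.45, -2.64 and -3.53, and the antagonist Nog was at 9.71 and 8.32 CPM in MEFs and 0.442 and 0.481 in ESCs. Bmp7 was the member called higher, from 0.185 and 0.396 to 5.45 and 5.29 CPM. The lower calls of this list numbered 14 under the stricter filter and 11 with limma on log2(TPM + 1).

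FGF signalling had members on either side, 11 higher (35.5%) and 12 lower (38.7%) of 31, against 25.5% and 20.6% of all genes. The ligands of pluripotent cells were higher: Fgf4 was at 202.1 and 200.8 CPM in ESCs with 3 reads in MEFs, Fgf17 at 0.0739 and 0.183 against 18.1 and 17.9, and Fgf15 at 8.34 and 8.6 CPM in ESCs with no read in MEFs. Ligands of mesenchyme were lower, with Hgf at 20.7 and 19.2 CPM in MEFs and 1.77 and 2.54 in ESCs, Fgf10 at 11.4 and 13.3 against 1.94 and 2.03, and Fgf7 at 39.2 and 35.1 against 9.93 and 10. Receptors followed, with Fgfr2 and Egfr at log2 fold changes of -2.64 and -1.88. Fgfr1 was at 322.6 CPM in both MEF libraries and 146.0 and 146.3 in ESCs (-1.14), and its call was lost under library-size scaling (-0.8) and with limma on log2(TPM + 1) (-0.94).

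Of 45 Wnt genes, 9 were higher, a share under the 25.5% of all genes, and 23 lower (51.1%, against 20.6% of all genes). Beside Lgr5, the ligand Wnt4 was at 42.4 and 39.7 CPM in MEFs and 1.36 and 1.52 in ESCs, the receptor Fzd1 at 123.0 and 117.8 against 6.48 and 6.09, and the R-spondin Rspo2 at 21.4 and 19.6 against 1.0 and 1.26. Among the higher genes, the effector Tcf7 was at 1.81 and 1.49 CPM in MEFs and 39.2 and 39.6 in ESCs, the receptors Fzd10 and Fzd5 had log2 fold changes of 5.72 and 1.57, and Porcn, the enzyme that acylates Wnt ligands, was at 9.16 and 10.2 against 69.8 and 72.9. The secreted antagonist Sfrp1 was not called, with 108.9 and 108.3 CPM in MEFs and 117.7 and 120.2 in ESCs. The stricter filter made 4 higher and 15 lower calls.

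The LIF pathway, on which these ESCs were grown, was not higher as a group: 4 of 19 members were called higher and 9 lower. These shares were 21.1% and 47.4%, against 25.5% and 20.6% of all genes. The receptor subunit Lifr was at 28.8 and 28.9 CPM in MEFs and 59.5 and 57.3 in ESCs (log2 fold change 1.02, SE 0.05, edgeR adjusted p 1.35e-10), a call at the edge of the fold minimum that was not made by DESeq2 (0.94), without ESC replicate 1 (0.99) or with limma on log2(TPM + 1) (0.66). The shared subunit Il6st was lower, at 526.9 and 526.0 CPM in MEFs and 90.8 and 86.5 in ESCs, as were Jak2 (147.9 and 147.4 against 14.4 and 16.2), Osmr (161.5 and 159.1 against 20.4 and 24.2) and the feedback inhibitor Socs3 (528.8 and 526.2 against 100.7 and 101.4). The Stat3 target Tfcp2l1, of the naive network, was higher, at 174.3 and 171.8 CPM in ESCs. The kinase Pim3 was at 32.4 and 32.1 against 126.5 and 132.2.

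Insulin-like growth factor genes were called lower in 16 of 18 cases. Igfbp5, a binding protein, was at 1796 and 1811 CPM in MEFs and 16.8 and 14.0 in ESCs (log2 fold change -6.87, SE 0.07, edgeR adjusted p 7.42e-18). The adaptor Irs1 was at 64.4 and 65.7 against 3.39 and 3.63, and Igfbp2 was the exception, at 110 and 112.6 CPM in MEFs and 359.4 and 371.7 in ESCs. In the list of primary cilium and hedgehog genes 7 of 22 were higher and 6 lower. The hedgehog coreceptors Gas1, Boc and Cdon were lower (log2 fold changes -5.66, -2.66 and -2.15) and the target Gli1 and the receptor Ptch1 higher (3.87 and 2.4). The shares of the whole list, 31.8% and 27.3%, are near the 25.5% and 20.6% of all genes. In the Notch list 7 of 23 were higher (30.4%, near the 25.5% of all genes) and 9 lower (39.1%, against 20.6%). The ligand Jag1 was at 268.4 and 261.0 CPM in MEFs and 29.3 and 29.1 in ESCs, while Jag2 was at 0.406 and 0.183 against 21.2 and 23.1 and the receptor Notch4 at 1.03 and 0.762 against 18.7 and 19.2. The target Hes1 had a log2 fold change of -2.14. The stricter filter made 4 higher calls in this list, and limma on log2(TPM + 1) made 5 lower ones.

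Innate immune genes were lower. Interferon response and antigen presentation genes were called lower in 23 of 39 cases and higher in 4, and chemokines, cytokines and their receptors lower in 17 of 28 and higher in none. B2m, the light chain of MHC class I, was at 350.2 and 359.6 CPM in MEFs and 97.0 and 99.6 in ESCs, the heavy chain H2-K1 at 102.5 and 107.2 against 19.2 and 21.4, and the DNA sensor adaptor Tmem173 (STING) at 57.9 and 60 against 4.66 and 5.18. Oas2 was among the exceptions, at 0.222 and 0.152 against 4.89 and 6.14 CPM. The chemokine Cxcl1 was at 53.3 and 54.6 CPM in MEFs and 1.33 and 1.47 in ESCs, Cxcl5 at 8.68 and 8.47 against 0.118 and 0.0534, and the pentraxin Ptx3 at 109.4 and 110 against 0.972 and 1.33. Csf1 was not called, at 227.7 and 232.1 against 154.6 and 154.3. The stricter filter made 13 lower calls and 1 higher call in the interferon list and 11 lower calls in the chemokine list, and limma on log2(TPM + 1) made 13 lower and 1 higher in the interferon list.

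Genes of DNA replication, which ESCs need for their short cycle, were called higher in 40 of 44 cases (median log2 fold change 1.73) and those of DNA repair in 30 of 37 (2.14), with none called lower. Without a fold minimum, 1 replication gene was called lower. Mcm10, a factor of helicase activation, was at 12.1 and 11.7 CPM in MEFs and 126.1 and 128.4 CPM in ESCs (log2 fold change 3.42, SE 0.05, edgeR adjusted p 1.62e-16). The helicase subunit Mcm5 was at 59.2 and 60.1 against 394.6 and 394.2, and the origin factors Orc1 and Cdt1 had log2 fold changes of 3.24 and 2.81. Msh6, of mismatch repair, was at 36.5 and 37.2 CPM in MEFs and 546.6 and 543.6 in ESCs (log2 fold change 3.89, SE 0.04, edgeR adjusted p 6.14e-18). Ung, which removes uracil from DNA, was at 6.5 and 5.4 against 78.8 and 81.6, and Parp1 at 91.6 and 89.2 against 598.2 and 592.3. Genes of mitosis were higher in 21 of 35 cases, with Top2a at 285.7 and 281.8 against 921.1 and 887.5 CPM and Bub1b at 70.0 and 69.8 against 253.1 and 246.7.

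Cell cycle regulators differed by member, 13 higher (39.4%) and 3 lower (9.09%) of 33, against 25.5% and 20.6% of all genes. Cyclin E1 (Ccne1), which drives entry into S phase, was at 26.2 and 28.5 CPM in MEFs and 178.3 and 173.8 in ESCs, and Mybl2, an activator of S phase and mitosis genes, at 20 and 19.4 against 729.4 and 740.4. The Myc family changed member. Myc was at 118.2 and 116.9 CPM in MEFs and 19 and 18.4 in ESCs (log2 fold change -2.65, SE 0.04, edgeR adjusted p 1.31e-15). Mycn was at 1.33 and 1.01 CPM in MEFs and 95.2 and 98.3 in ESCs (log2 fold change 6.39, SE 0.08, edgeR adjusted p 1.08e-16). Cyclin D2 (Ccnd2) was lower, at 659.2 and 650.6 against 198.6 and 200.3. Among p53 targets and genes of senescence 9 of 29 were lower (31.0%) and 3 higher (10.3%), against 20.6% and 25.5% of all genes. Under library-size scaling 4 were lower. The inhibitors of cyclin-dependent kinases Cdkn1c, Cdkn2c and Cdkn2b had log2 fold changes of -3.08, -2.93 and -2.43. Trp53 itself was at 134.7 and 140.6 CPM in MEFs and 278.2 and 278.0 in ESCs (log2 fold change 1.01), a call not made by DESeq2 (0.94) or without MEF replicate 1 (0.97).

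Of the chromatin lists, DNA methylation and Tet genes were mostly higher, in 13 of 20 cases, with 4 lower (median log2 fold change 1.84). The dioxygenase Tet1 was at 13.4 and 14.0 CPM in MEFs and 562.4 and 528.1 in ESCs (log2 fold change 5.31, SE 0.06, edgeR adjusted p 4.12e-17), whereas Tet3 was at 60.7 and 55.5 against 13.9 and 12.9. The methyltransferase Dnmt3b was at 2.59 and 3.87 CPM in MEFs and 138.2 and 141.0 in ESCs, its cofactor Dnmt3l at 0.591 and 0.854 against 347.7 and 357.1, and the remodeler Hells at 30.5 and 28.5 against 334.1 and 323.1. Dnmt3l stood at 1.23 CPM on day 9. Of the readers of methylated DNA, Mbd2 was at 67.2 and 67.9 against 21.6 and 19.

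In the Polycomb groups, which silence developmental genes, 13 of 34 members were higher and 8 lower, and the paralogs changed places. These shares were 38.2% and 23.5%, the latter near the 20.6% of all genes, of which 25.5% were higher. Cbx7 was at 1.96 and 2.01 CPM in MEFs and 141.0 and 141.7 in ESCs (log2 fold change 6.15, SE 0.07, edgeR adjusted p 5.9e-17), while Cbx6 was at 161.2 and 158.5 against 58.5 and 55.9. Phc1 was at 36.0 and 38.3 against 580.3 and 573.1, and Phc2 at 115.7 and 106.7 against 34.6 and 34.3. Jarid2, a partner of the methyltransferase complex, was at 23.2 and 24.5 against 330.3 and 328.9. Under library-size scaling 5 of the lower calls were made, and limma on log2(TPM + 1) made 3.

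Of the remodelers, 7 of 39 were higher and 6 lower, shares under those of all genes, and library-size scaling gave 14 higher. Chd7 was at 2.66 and 3.14 CPM in MEFs and 53.6 and 54.3 in ESCs, the subunits Smarca2 and Smarcc2 of the BAF complex had log2 fold changes of -2.64 and -1.98, and Smarcd1 one of 1.78. Chd3, of NuRD, was at 594.1 and 576.2 against 61.0 and 59.4, and its paralog Chd4 was not called, at 376.6 and 368.6 against 478.6 and 482.1. Histone methyltransferases and demethylases were higher in 10 of 37 cases, close to the 25.5% of all genes, and in 16 under library-size scaling. Wdr5, a subunit shared by the H3K4 methyltransferases, was at 50.2 and 51.7 CPM in MEFs and 218.7 and 229.5 in ESCs. In the nuclear lamina, Lmna was at 1065 and 1059 CPM in MEFs and 141.7 and 141.6 in ESCs (log2 fold change -2.91, SE 0.04, edgeR adjusted p 9e-17), and Lmnb1 at 97.5 and 93.6 against 415.5 and 420.4. The nuclear pore gene Nup210 was at 0.517 and 0.305 against 68.6 and 66.9.

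Genes that make ribosomes were higher, while ribosomal protein genes were not. Ribosome biogenesis genes were called higher in 29 of 36 cases (median log2 fold change 1.37), with Dkc1, of the pseudouridylation complex, at 32.1 and 30.9 CPM in MEFs and 194.9 and 183.3 in ESCs. Of 82 cytoplasmic ribosomal protein genes, 5 were higher and 1 lower, and their median was 0.09, next to the 0.1 of all genes. Rpl4 was at 1844 and 1868 CPM in MEFs and 2304 and 2364 in ESCs. Of the exceptions, Rpl3 was at 515.2 and 567.7 against 1274 and 1282, and Rps4l, a close copy of another ribosomal protein gene and therefore uncertain, at 63.2 and 70.0 against 324.9 and 341.4. Without a fold minimum, 37 of these genes were called higher and 18 lower.

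Several RNA-binding proteins of early development were higher in ESCs. Lin28a, which blocks maturation of let-7 microRNAs, was at 0.148 and 0.061 CPM in MEFs and 210.9 and 206.1 in ESCs, Lin28b at 0.222 and 0.061 against 25.1 and 22, and the ubiquitin ligase Trim71, itself a let-7 target, at 3.95 and 3.72 against 227.8 and 225.6. Hmga2, another let-7 target, was lower, at 218.5 and 218.8 against 69.5 and 70.9, and Hmga1 was higher, at 62.4 and 65.6 against 349.4 and 384.3. The list as a whole had 6 of 19 higher (31.6%, against 25.5% of all genes) and 1 lower (5.26%, against 20.6%). Among splicing regulators 8 of 36 were higher and 6 lower, near the shares of all genes, and library-size scaling gave 13 higher. The epithelial splicing factor Esrp1 was at 13.5 and 14.2 CPM in ESCs with 3 reads in MEFs. Mbnl1 and Mbnl2, which favour splice forms of differentiated cells, were at 187.8 and 185.5 against 28.1 and 29.5 and at 252.0 and 249.8 against 63.5 and 62.5. Celf2 had a log2 fold change of -2.48.

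Metabolic lists differed in direction. Of 28 glycolytic genes, 4 were higher (14.3%) and 9 lower (32.1%), against 25.5% and 20.6% of all genes. Under library-size scaling 5 were lower. The glucose transporter Slc2a3 was at 43.4 and 43.9 CPM in MEFs and 1048 and 1046 in ESCs (log2 fold change 4.58, SE 0.03, edgeR adjusted p 2.1e-18). Hexokinase 2 (Hk2) was at 108.0 and 107.3 against 254.3 and 251.0. The lactate exporter Slc16a3 was lower, at 495.5 and 501.7 against 126.1 and 136.1, and its relative Slc16a1 higher, at 39.5 and 40.1 against 100.2 and 97.7. Gapdh was at 4698 and 4761 against 3919 and 4043 and was not called. Nuclear genes of oxidative phosphorylation were higher in 6 of 89 cases and lower in 3, and none of the 13 mitochondrially encoded genes was called. Without a fold minimum these counts were 58 and 18, and 7 and 1. The 3 called genes that differed most were Cox4i2 at 9.68 and 10.2 CPM in MEFs and 1.44 and 1.28 in ESCs, Ndufa4l2 at 173.1 and 167.6 against 19 and 19.6, and Cox6b2 at 5.1 and 4.7 against 35.6 in both ESC libraries.

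In one-carbon metabolism, threonine dehydrogenase (Tdh), on which mouse ESCs depend for threonine use, was at 0.185 and 0.244 CPM in MEFs and 160.3 and 160.6 in ESCs (log2 fold change 9.51, SE 0.08, edgeR adjusted p 3.7e-18). The subunits Gldc and Amt of the glycine cleavage system were at 0.517 and 0.732 against 121.6 and 123.1 and at 2.99 and 2.62 against 86.3 and 84.1. The mitochondrial folate enzyme Aldh1l2 was lower, at 278.1 and 280.8 against 14.9 and 15.6. Of the serine synthesis enzymes, Psat1 was not called, and Phgdh was called lower, at 356.9 and 348.6 against 169.2 and 179.6. The log2 fold change of Phgdh, -1.02, was at the edge of the fold minimum. Its call was lost without ESC replicate 1 (-0.97) and under library-size scaling (-0.68). The whole list had 10 of 24 higher (41.7%, against 25.5% of all genes) and 5 lower (20.8%, next to 20.6%). Under library-size scaling 2 were lower.

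Sterol and fatty acid synthesis was lower in 20 of 30 cases. The desaturase Scd2 was at 2748 and 2735 CPM in MEFs and 360.3 and 368.5 in ESCs, and Cyp51, of cholesterol synthesis, at 327.2 and 329.6 against 58.1 and 55.5. Acacb was the only member called higher, from 5.43 and 5.67 to 26.3 and 25.4. Lysosome and autophagy genes were lower in 15 of 32 cases, in 19 or 20 after subtraction of the fibroblast share and in 9 under library-size scaling. The membrane protein Lamp2 was at 546.3 and 541.8 CPM in MEFs and 107.6 and 114.1 in ESCs, and Tfeb, the regulator of lysosomal genes, was higher, at 5.39 and 5.76 against 24.2 and 27.2. Of 36 detoxification genes, 9 were higher (25.0%, next to the 25.5% of all genes) and 12 lower (33.3%). Gsta4, a glutathione transferase, was at 18.5 and 19.6 against 223.6 and 230.2, the superoxide dismutases Sod1 and Sod2 had log2 fold changes of 1.38 and 1.43, and the extracellular Sod3 one of -3.33. Of the amino acid transporters, 7 of 21 were higher and 4 lower, with the cystine transporter Slc7a11 at 14.0 and 15.4 against 2.65 and 2.78.

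Imprinted genes, which are expressed from a single parental allele, were called lower in 20 of 33 cases and higher in 8. These shares were 60.6% and 24.2%, the latter near the 25.5% of all genes, of which 20.6% were lower. H19, a non-coding RNA next to Igf2, was at 3042 and 3091 CPM in MEFs and 30.1 and 31.0 CPM in ESCs (log2 fold change -6.65, SE 0.04, edgeR adjusted p 7.66e-19). The growth regulators Dlk1 and Plagl1 had log2 fold changes of -5.34 and -5.15. Phlda2, a placental growth restrictor, was higher, at 34.9 and 35.8 CPM in ESCs with 1 read in MEFs, and Snrpn was at 14.2 and 14.1 against 91.8 and 91.6. Neighbouring Igf2 and H19, expressed from opposite parental alleles, were both low in ESCs, and allele-specific reads were not available from these tables. The stricter filter made 4 higher calls.

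Sex-linked genes showed that both groups had RNA from a Y chromosome, at unequal levels. Ddx3y was at 90.6 and 86.4 CPM in MEFs and 26.1 and 26.8 in ESCs, Eif2s3y at 54.2 and 58.1 against 21.5 and 20.6, Kdm5d at 26.1 and 25.0 against 7.1 and 7.37, and Uty at 22.5 and 23.2 against 8.07 and 8.71. Xist, the RNA of the inactive X chromosome, was at 0.739 and 0.793 CPM in MEFs and 11.3 and 9.0 in ESCs, and its antisense partner Tsix at 0 in MEFs and 6.95 and 7.18 in ESCs. The kit marks strand, but the strand setting of the quantification is not given, so reads of Xist and Tsix may be shared. Ddx3x, the X-linked counterpart of Ddx3y, was at 492.2 and 477.6 against 578.5 and 571.0 and was not called.

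Markers of further cell types were examined because neither culture was sorted, and the genes named were chosen after their values were seen. The haematopoietic gene Ptprc stayed under or near 1 CPM and the endothelial gene Cdh5 under 0.2 CPM in each library. Other members of the macrophage and endothelial lists were high in ESCs. Pecam1 was at 96.3 and 101.7 CPM against 0.517 and 0.244 in MEFs, Lyz2 at 49.6 and 50.6 against 3.58 and 3.23, and Cd68 at 25.6 and 25.4 against 1.81 and 1.62. The marker lists are short, and their counts stand beside 25.5% of all genes called higher and 20.6% called lower. Of 8 macrophage genes 3 were higher and 1 lower, with sums of 13.8 and 14.6 CPM in MEFs and 82.5 and 85.9 in ESCs. Of 6 endothelial genes 3 were higher and 2 lower, with sums of 9.72 and 8.78 CPM in MEFs and 108.5 and 113.4 in ESCs. Of 5 neural progenitor genes 3 were higher and 1, Pax3, lower at under 1 CPM in every library. The higher ones were Sox1 at 13.8 and 15.3 CPM, Olig2 at 20.7 and 18.8 and Pax6 at 7.87 and 8.31, each under 0.5 CPM in MEFs. Of 7 primitive endoderm genes 3 were called lower and 3 higher, the latter (Amn, Sox7 and Sox17) under 2 CPM in every library. The lower ones included Dab2 at 117.1 and 116.1 CPM against 16.6 and 15.9 and Gata6 at 17.1 and 15.8 against 3.36 and 3.2. Embryonic mesoderm genes summed to 1.74 and 1.49 CPM in MEFs and 3.27 and 4.11 in ESCs, with T under 0.5 CPM in every library. In that list 2 of 5 tested genes were called higher and 0 lower. Trophoblast genes summed to between 9.79 and 10.8 CPM in each of the 4, but these even sums hide differences by member. There, 2 of 6 tested genes were called higher and 2 lower, with log2 fold changes from -3.27 to 6.26.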

How the data were processed

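RNA-seq of 10 mouse libraries was used, 2 in each of 5 groups, of which ESCs and MEFs are compared here. RNA was extracted with TRIzol, libraries were made with the TruSeq stranded mRNA kit and 50-base single reads were sequenced, per the labels' protocols. Per the submitters' processing notes, Salmon 0.8.2 and the build mm10 were used. The deposited tables give estimated counts and TPM per transcript for each library, made by the authors. The strand setting and annotation are not given in the sources used here.

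The estimated counts of 109617 transcripts were summed to 45706 genes by gene identifier and rounded to whole numbers. Genes passing filterByExpr (minimum count 10, minimum total 15) were fitted with the quasi-likelihood test of edgeR 4.0.16 in R 4.3.3, with TMM scaling and a mean per group over all 10 libraries, which share one estimate of the spread. The common biological coefficient of variation was 3.75%. P-values were adjusted by Benjamini-Hochberg over all genes tested. Deposited TPM values were summed per gene for levels between genes and for limma 3.58.1 with a pseudocount of 1 or 0.1. DESeq2 1.42.0 was an alternative. Coordinates are those of GENCODE M21, found for 98.8% of genes. Replicates of a group differed by more than sampling noise (chi-square per degree of freedom 2.91 in MEFs and 3.49 in ESCs). The calling of genes was tried on simulated data of 19052 genes, of which 200 were changed, equally often up and down. There, 99% of genes changed by 2 on the log2 scale were recovered and 3 unchanged genes were called. In the real comparison 46.1% of genes were called, so these rates need not hold for it.

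The 52 functional and 14 marker lists, and the comparison itself, were chosen with earlier results of these data known. Named genes were the fibroblast, pluripotent and sex-linked markers, the 10 largest changes in each direction at 20 CPM or more, up to 4 called members of each list in each direction at 5 CPM or more, members called against the list's median, the most abundant member of each list and the 5 highest by TPM in each group. A few members of the lists are counted but not reported singly here.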

Additional observations from a re-analysis of the deposited data

How the results depend on the processing

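The 5142 higher and 4148 lower genes became 2337 and 2730 with the stricter filter, which tests fewer genes, 2771 and 2276 with limma on log2(TPM + 1), and 8140 and 7302 with no fold change minimum. Counts under the remaining alternatives lay within 1.5 times. Among them were DESeq2 (4394 and 4179), glmTreat of edgeR (4199 and 3455) and a fit of the 4 libraries alone (5010 and 4072). Leaving out one library gave 4874 to 4988 higher and 4014 to 4086 lower genes, the lone sample of a group being assumed to vary like the other groups. With the replicate number as a block, 5067 and 4094 genes were called, and no call of the 400 named genes and no list count moved by over 1.5 times. MEF replicate 1 and ESC replicate 1 did not deviate together from their group means (r = 0.000347). This single correlation cannot decide whether equal numbers share a preparation, which the labels do not say.

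The median marker ratio of 9.33% was 13.2% at the upper quartile, 5.0% at the lower quartile, 11.8% with library-size scaling, 9.76% on TPM and 11.7% over receptors and transcription factors only. It was 8.97% to 9.63% without one library. Of the 400 genes chosen by rule, 1 reversed, to 0.02 with limma on log2(TPM + 1) and to 0.02 on log2(TPM + 0.1), and the cause was not tested. Calls were lost for 20 genes under library-size scaling, 35 and 8 with the limma fits, 8 with glmTreat and 2 with DESeq2 (Lifr and Trp53). Of 104 list counts, 19 moved by over 1.5 times under library-size scaling, 20 with limma on log2(TPM + 1), 15 with the stricter filter and 42 with no fold minimum.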
